A study of Mus musculus with 6 samples.

Results

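The respiratory chain of the inner mitochondrial membrane passes electrons from NADH and succinate to oxygen and uses the energy to make ATP. Complex I (NADH dehydrogenase), complex II (succinate dehydrogenase, also an enzyme of the citric acid cycle), complex III (cytochrome bc1), complex IV (cytochrome c oxidase) and complex V (ATP synthase) are built mostly from subunits encoded in the nucleus. The mitochondrial genome encodes 13 further subunits, spread over all of the complexes except complex II. Several subunits of complex IV come in a ubiquitous form and a form restricted to some tissues, and those pairs are a known way in which cell types differ in their oxidase.

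The nuclear-encoded subunits were chosen by gene symbol (the Nduf, Sdh, Uqcr, Cox4 to Cox8 and Atp5 names of the deposited gene list, without pseudogenes) with at least 1 unique molecular identifier (UMI, 1 tagged RNA molecule) in each of the 6 libraries. Of 31053 listed genes, 84 matched by name and 81 were kept: 37 of complex I, 4 of complex II, 8 of complex III, 16 of complex IV and 16 of complex V. The 3 left out were Cox8b with 3 UMIs, Cox8c with 0 and a second entry named Atp5o with 1. Cox7b2, with 11 UMIs in all and 1 in its lowest library, was the member nearest the limit, followed by Cox6b2 with 361 and Ndufa4l2 with 510. Ndufa4 is grouped here by its name with complex I, although its product is now counted as a subunit of complex IV.

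The study measured single-cell RNA from whole tumours of male C57Bl/6 mice aged 6 to 8 weeks that carried YUMMER1.7 cells, a mouse melanoma line whose parent was irradiated with ultraviolet light. Both groups received 600000 cells under the skin, and mice were randomized once tumours had formed. The 3 sedentary libraries (numbered 1, 2 and 3) had no running, and the 3 exercise libraries (5, 6 and 8) came from mice that ran at 12 m/min for 45 min a day on 14 days in a row. The labels do not say how many tumours entered a library, so the p-values measure the spread between libraries.

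The files held 58351 cell barcodes and 714448740 UMIs, and 51529 cells remained after limits on quality and doublets. A library's median depth was 5895 to 12426 UMIs a cell, and 384 of 57964 distinct barcodes occurred in more than 1 library. Cells were assigned to classes by marker genes, none of them a respiratory chain subunit, and 33.8% passed no gate. The largest class was a non-immune population of 23410 cells (32.0% to 52.1% of a library) with no UMI of the pan-leukocyte gene Ptprc, by its gate. Its pigment cell markers were near 0 (Mlana 5 UMIs, Sox10 2, Dct 7, Tyr 3 and Pmel 135 of 526613005), and its leading genes were Mgp, Ptn and Sparcl1, so this largest class is named by its gate (main non-immune) rather than as melanoma cells. Of the immune classes, the 5164 macrophage and monocyte-like cells, 2732 CD8 T-like cells, 968 NK-like cells and 607 neutrophil-like cells were the largest. The 285 dendritic-like cells were an uneven class: only 25.9% to 60.3% of them held a Ptprc UMI, and their median depth ran from 6907 to 40145 UMIs.

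In the whole tumour the 81 subunits together summed to 21713 ± 786 CPM (UMIs scaled to the same total in each library, the counts-per-million unit; SD, n = 6 libraries), or 2.17% of the total. The 13 subunits encoded by the mitochondrial genome summed to 41649 ± 4060. The assay counts 1 tag at the 3′ end of each molecule, so CPM do not scale with transcript length and can be set side by side between genes. Cox8a, a small structural subunit of complex IV, was the highest of all at 1229 ± 34.6 CPM, with a range over the libraries of 1192 to 1269. Within the other complexes the highest members were Atp5e at 721 ± 50.1, Uqcrh at 651 ± 32.7, Ndufa2 at 497 ± 38.2 and Sdhb at 94.1 ± 7.50. The lowest within complexes IV, I and V were Cox7b2 at 0.0162, Ndufa4l2 at 0.762 and Atp5s at 4.56. Complex II stood lowest as a whole, at 266 ± 18.7 CPM for its 4 genes.

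Among 8 classes compared, CD8 T-like cells devoted the largest share of their UMIs to the subunits and neutrophil-like cells the smallest. The 81 genes summed to 25680 ± 1152 CPM in CD8 T-like cells, 24424 ± 782 in pDC-like cells (plasmacytoid dendritic), 23879 ± 968 in macrophage and monocyte-like cells and 23154 ± 831 in Treg-like cells. NK-like cells at 21948 ± 364, the main non-immune population at 21602 ± 837 and dendritic-like cells at 21114 ± 1572 followed. Neutrophil-like cells stood at 17876 ± 835. Neighbours in this order overlapped between libraries, except that the highest neutrophil-like library (18812) lay below the lowest dendritic-like one (19056). The plot by complex shows that complex II broke the order: it was highest in macrophage and monocyte-like cells, at 375 ± 26.6 CPM against 318 ± 30.2 in CD8 T-like cells and 261 in the main non-immune population.

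**Figure D1:**
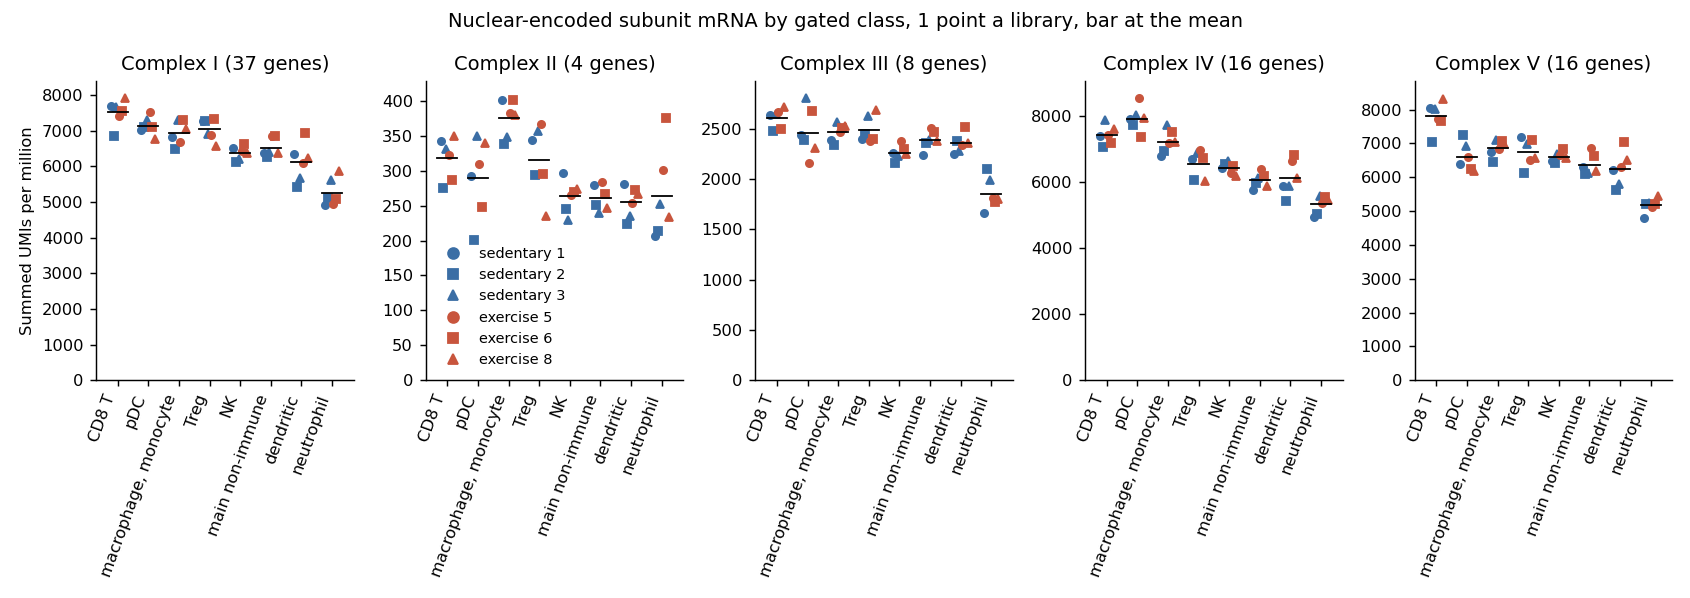
Summed CPM (linear axis from 0) of the subunits of each complex in 8 gated classes; each point is 1 library (blue sedentary, red exercise) and the bar is the mean of 6. Neutrophil-like cells are lowest in complexes I, III, IV and V, and macrophage and monocyte-like cells are highest in complex II at 375 CPM.

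The sharpest difference between classes was in the restricted isoforms of complex IV. Cox6a2, the heart and skeletal muscle form of subunit VIa (chromosome 7, 128205435 to 128206387, mm10, minus strand), was a gene of the pDC-like class. It read 1866, 959 and 975 CPM in the pDC-like cells of sedentary libraries 1, 2 and 3, and 1537, 546 and 1542 in exercise libraries 5, 6 and 8. In dendritic-like cells 5 libraries had none and 1 had 2.04. Every pDC-like library was thus far above every dendritic-like one. The pooled ratio was 3050, with a 95% counting interval of 842 to 25226 because the dendritic-like cells held only 2 UMIs of it.

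Those 121 pDC-like cells were 0.235% of all cells and held 60.1% of the 1346 Cox6a2 UMIs of the kept cells (exact binomial 95% interval 57.4% to 62.7%). That interval does not cover the spread between libraries: the share was 87.7%, 49.4% and 43.7% in sedentary libraries 1, 2 and 3. In exercise libraries 5, 6 and 8 it was 58.8%, 41.9% and 42.3%. The main non-immune population, 45.4% of the cells, held 23.9% of the Cox6a2 UMIs (4.02% in sedentary library 1 to 43.3% in sedentary library 3). A Cox6a2 UMI was seen in 86.8% of pDC-like cells at a median of 2728 to 4387 UMIs a cell. In the main non-immune population it was seen in 1.00% of cells, at a median of 17025 to 27206 UMIs a cell. The ubiquitous partner Cox6a1 read 202 ± 33.4 CPM in pDC-like cells and 171 ± 29.9 in dendritic-like cells (log2 difference 0.22, SE 0.19, edgeR adjusted p = 0.44). In pDC-like cells Cox6a2 outnumbered Cox6a1 in every library, whereas in the main non-immune population Cox6a1 stood at 135 ± 3.80 and Cox6a2 at 0.619 ± 0.373.

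Beyond Cox6a2, pDC-like and dendritic-like cells differed in few subunits. Markers of the main population were present in dendritic-like cells. Over the libraries together Nes read 56.9 CPM in dendritic-like cells, 29.4 in pDC-like cells and 57.1 in the main population. Pdgfra read 98.2, 63.6 and 145 in the same order, and Cspg4 29.0, 19.6 and 50.5. Ptprc stood at 94.5 CPM in dendritic-like and 956 in pDC-like cells. The part of these markers in this contrast was not tested. Of 74 members tested, 5 were higher and 0 lower in pDC-like cells at an adjusted p under 0.05, where 24% of all 4689 genes tested were called (13.1% higher, 10.9% lower), so the members' share of calls was below that of all genes. The other 4 were Ndufa1 (0.79 on the log2 scale), Ndufa3 (0.77), Ndufv3 (0.64) and Cox4i1 (0.52), accessory subunits of complex I and the ubiquitous form of complex IV subunit 4. None of these 4 held when dendritic-like cells were limited to those with a Ptprc UMI or when the gates asked for 1 more marker: Cox6a2 was then the 1 member called higher. Uqcrb, a small subunit of complex III named after its values were seen, was the 1 called lower under each limit (all genes: 16% higher and 14.2% lower with the first, 11.5% and 9.95% with the second). Ndufa3 turned to -0.070 with the first limit, and Ndufa3 (-0.13), Ndufa1 (-0.049) and Cox4i1 (-0.014) turned with the second. The count of higher members also fell to 2 without sedentary library 1, without sedentary library 3 or without exercise library 5.

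Cox4i2, the form of complex IV subunit 4 best known from lung and from oxygen-sensing cells (chromosome 2, 152754173 to 152765037, plus strand), had most of its UMIs in the macrophage and monocyte-like class. It read 56.9, 35.6 and 77.9 CPM in those cells of the sedentary libraries and 31.5, 29.0 and 53.3 in the exercise libraries. In the main non-immune population its highest library was at 0.123. Its level was higher still in the 4 pericyte-like cells, which held 19 of its UMIs (336 CPM over the libraries together) in 3 of the cells. Macrophage and monocyte-like cells against the main population gave a pooled ratio of 599 (436 to 846), and the class held 82.2% (80.3% to 83.9%) of the 1721 Cox4i2 UMIs with 10.0% of the cells. A Cox4i2 UMI was seen in 15.9% of macrophage and monocyte-like cells (10.1% to 23.7% by library; median depth 4872 to 6264 UMIs) against 0.329% of CD8 T-like and 0.167% of main non-immune cells. Its partner Cox4i1 was at 1059 ± 52.8 in the same cells, so the restricted form remained a small addition to the ubiquitous one.

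Cox7a1, the heart and muscle form of subunit VIIa, and Cox6b2, first known from testis, were higher in macrophage and monocyte-like and in CD8 T-like cells than in the main non-immune population, at low levels. Cox7a1 stood at 10.1 ± 3.11 CPM in macrophage and monocyte-like cells and at 0.922 ± 0.272 in the main non-immune population, with no overlap. Cox6b2 stood at 4.30 ± 0.729, 3.15 ± 2.18 and 0.0785 ± 0.0996 in macrophage and monocyte-like, CD8 T-like and main non-immune cells. The main non-immune population held 36 Cox6b2 UMIs in all, 18 of them from exercise library 5. Ndufa4l2, a paralogue of Ndufa4 induced by low oxygen in many cells, was high in the few stromal cells instead. It was seen in 29.4% of 68 fibroblast-like cells, and read 0, 134 and 0 CPM in their sedentary libraries and 165, 172 and 11.7 in their exercise libraries. With 3 to 36 fibroblast-like cells a library, these values do not order the groups. The 4 pericyte-like cells held 29 more of its UMIs.

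**Figure D2:**
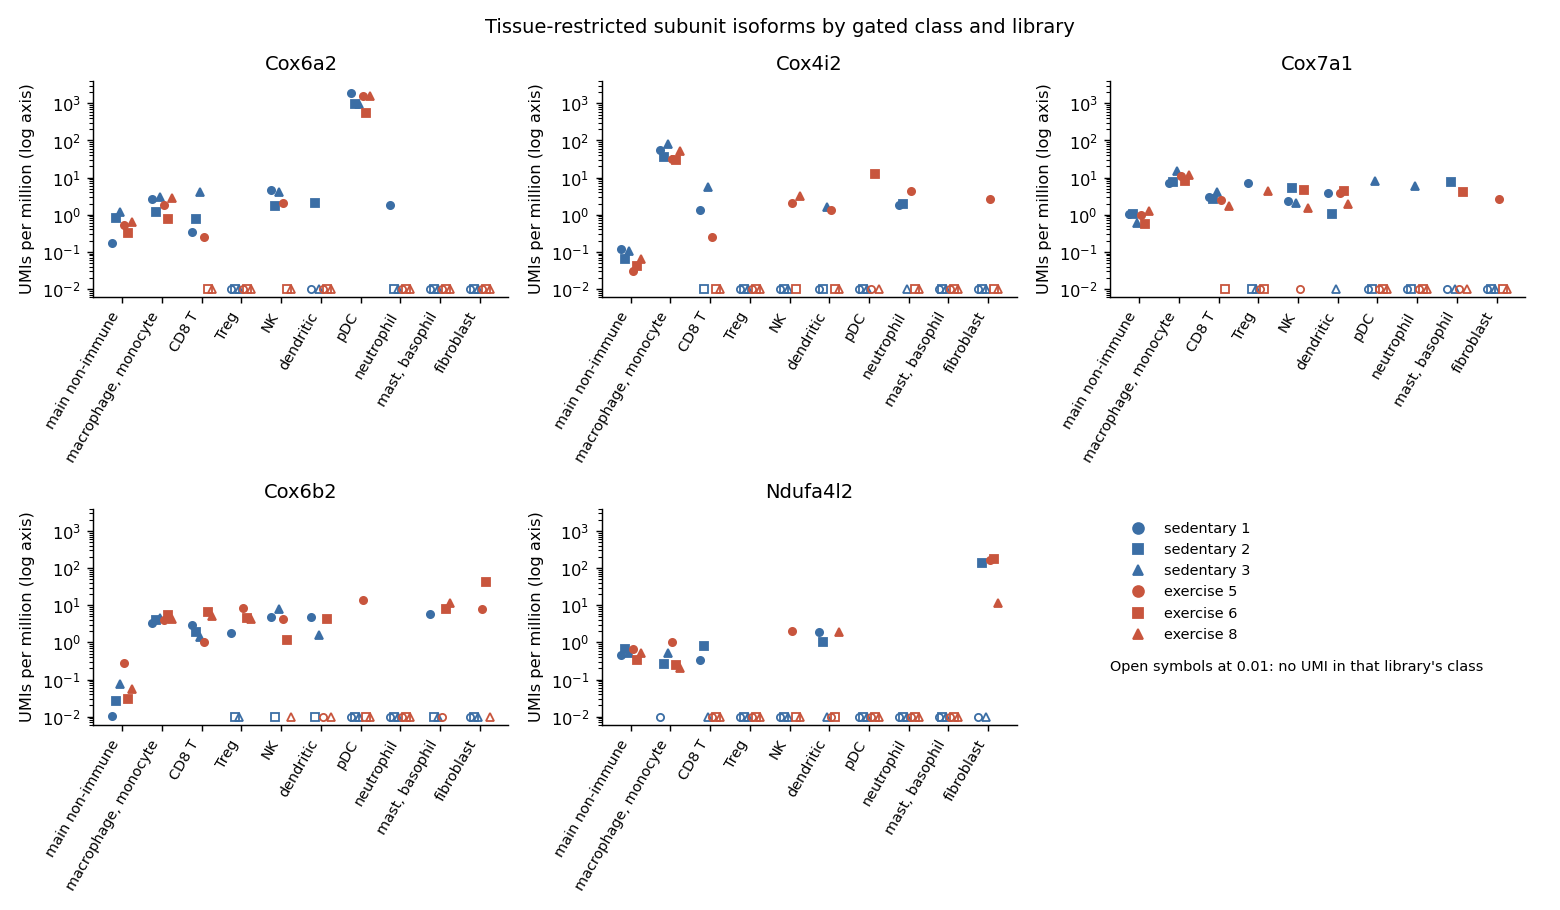
CPM (log axis) of 5 restricted isoforms in 10 gated classes; each point is 1 library (blue sedentary, red exercise), and open symbols at the bottom mark a library with no UMI in that class. Cox6a2 is high in pDC-like cells alone of these classes (546 to 1866 CPM), Cox4i2 in macrophage and monocyte-like cells (29.0 to 77.9), and Ndufa4l2 in fibroblast-like cells of 4 libraries.

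Macrophage and monocyte-like cells carried more of most subunits than the main non-immune population of the same tumours. Of 80 members tested, 46 were higher and 14 lower, where 78.3% of all 13490 genes were called (37.5% higher, 40.8% lower). Of these, 76 lay above the low-count limit in every library of both classes, and 43 of the 76 were higher and 14 lower. Cox4i2, Cox6b2 and Cox6a2 met that limit only in the macrophage and monocyte-like libraries and Ndufa4l2 only in the main population. The median difference of the tested members was 0.19 on the log2 scale against -0.05 for all genes. All 4 genes of succinate dehydrogenase were higher. Sdhb, the iron-sulphur subunit, read 135 to 175 CPM (median 153) in macrophage and monocyte-like cells and 79.6 to 96.0 (median 91.8) in the main population, a log2 difference of 0.82 (SE 0.06). The membrane anchors Sdhc (0.62) and Sdhd (0.58) differed nearly as much, and the flavoprotein Sdha least (0.19, SE 0.06, adjusted p = 0.0083).

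In complex IV 10 of 15 tested members were higher in macrophage and monocyte-like cells and 1 was lower. The 10 higher members included the ubiquitous partners Cox6a1 (0.95), Cox6b1 (0.87) and Cox4i1 (0.60) beside the restricted Cox7a1 (3.49), Cox4i2, Cox6b2 and Cox6a2. The last 3 are in that count although they met the low-count limit only in the macrophage and monocyte-like libraries. The main population held 39 Cox4i2 and 36 Cox6b2 UMIs, so these genes are given by their pooled ratios, 599 as above for Cox4i2 and 61.9 (42.6 to 92.1) for Cox6b2. Cox7a2 (0.04, SE 0.05) and Cox7a2l (-0.08, SE 0.06), the latter known for its place in supercomplexes, were not called. Complex I was split, with 17 of 37 higher and 9 lower. Ndufa1, a small membrane subunit, rose most (1.06, SE 0.06; 152 ± 15.7 against 75.6 ± 4.53 CPM). Among the members that fell were Ndufv1 (-0.55), which binds NADH, Ndufb11 (-0.49) and Ndufb9 (-0.28).

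The 3 genes of the c-ring of ATP synthase, which encode the same mature protein, went different ways. Atp5g2 was lower in macrophage and monocyte-like cells (-0.56, SE 0.05), at 463 ± 39.9 against 708 ± 83.3 CPM, and the libraries did not overlap. Atp5g1 (0.29, SE 0.06) and Atp5g3 (0.19, SE 0.05) were higher. Other mitochondrial lists did not follow the subunits: of 16 citric acid cycle enzymes 2 were higher and 9 lower, of 78 mitochondrial ribosomal proteins 18 and 35, of 46 assembly factors 12 and 16, and of the 13 mitochondrially encoded subunits 2 and 7. Markers of the main population summed to 307 to 473 CPM in the macrophage and monocyte-like cells and 822 to 956 in the main population itself. Most of the former sum was Mmp14, at 255 CPM over the libraries together against 234 in the main population. The other markers ran from 8.19 (Cspg4) to 31.1 (Fstl1) in macrophage and monocyte-like cells, against 50.5 and 183 in the main population. Their part in the differences was not tested.

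Against the main non-immune population, more subunits were higher than lower in CD8 T-like cells as well. Of 79 members 41 were higher and 13 lower (all genes: 69.5% called, 33.2% higher and 36.3% lower), and 20 were lower when all genes of at least 1 UMI were tested. The members' share of calls in either direction was thus near that of all genes. Of the 75 members above the low-count limit in every library of both classes, 39 were higher and 13 lower. Ndufa4 read 288 to 434 CPM (median 401) in CD8 T-like cells and 116 to 163 (median 145) in the main population, a log2 difference of 1.43 (SE 0.08). Ndufa1 (1.39), Ndufb7 (1.35) and, at low levels, Cox7a1 (1.28) and Cox6b2 were the others that rose most. Cox6b2 had 36 UMIs in each of the 2 classes, a pooled ratio of 39.7 (24.3 to 64.8), and met the low-count limit only in the CD8 T-like libraries. Cox7a1 met that limit in every library of the main population only. CD8 T-like cells held 32 of its UMIs, and 0% of those in exercise library 6. Among the members that fell were Ndufv1 (-0.31), Sdhc (-0.29), Ndufa8 (-0.29) and Ndufs4 (-0.26), so Ndufv1 was lower in both immune classes. Sdhb was higher here as well (0.78), whereas Sdha (0.02, SE 0.07) and Sdhd (-0.10, SE 0.10) were not called. Main population markers ran from 13.2 (Cspg4) to 58.5 (Mmp14) CPM over the libraries together in CD8 T-like cells. The main population itself had 50.5 and 234 of these 2. The part of these markers in the differences was not tested.

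The membrane anchors of succinate dehydrogenase were lower in CD8 T-like than in macrophage and monocyte-like cells. Of 78 members 17 were higher and 23 lower in CD8 T-like cells (all genes: 65.4% called, 31.7% higher and 33.7% lower). This split turned when library totals replaced the composition-corrected scaling (27 higher, 14 lower) and with doublets kept or stricter gates (13 and 15 lower), and 15 were lower without exercise library 5, so no direction is given for the group as a whole. In the main fit 74 members lay above the low-count limit in every library of both classes, and 17 of the 74 were higher and 21 lower. Cox4i2, Cox6b2 and Cox7a1 met that limit only in the macrophage and monocyte-like libraries. Sdhc (-0.94) and Sdhd (-0.69) were lower without overlap, and Sdhb did not differ beyond its error (-0.07, SE 0.08). Uqcrh, the acidic hinge protein of complex III, was higher in CD8 T-like cells at 775 ± 45.9 against 528 ± 28.5 CPM (0.46). Ndufb7 (0.51), Ndufa13 (0.49), Ndufa4 (0.47) and Atp5g2 (0.35) were the others that rose most, and Ndufb8 (-0.45) fell. Cox4i2 (-6.01) and Cox7a1 (-2.07), which entered the test through the macrophage and monocyte-like libraries, had 9 and 32 UMIs in CD8 T-like cells.

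Neutrophil-like cells carried less of the subunits than macrophage and monocyte-like cells. Of 76 members 0 were higher and 38 lower (all genes: 36.7% called, 17.2% higher and 19.5% lower), with a median of -0.48 against -0.10 for all genes, and 32 of the 65 above the low-count limit in every library of both classes were lower. Cox5a, a matrix subunit of complex IV, read 169 to 314 CPM (median 284) in neutrophil-like cells and 579 to 733 (median 669) in macrophage and monocyte-like cells, a fall of 1.28 on the log2 scale (SE 0.20). Ndufa4 (-1.22) and Atp5o, part of the stalk of ATP synthase (-1.15), fell nearly as much. Cox4i2 and Cox7a1 had 3 and 1 UMIs left in neutrophil-like cells; the pooled ratios of the macrophage and monocyte-like level to theirs were 23.1 (7.89 to 112) and 15.5 (2.76 to 614). Cox8a read 1180 ± 210 CPM against 1063 ± 48.7 and was not called. The neutrophil-like cells had a median of 792 to 1258 UMIs, and with 21 cells in exercise library 6 a single UMI weighed 53.6 CPM there. They also held markers of the main population. Over the libraries together Fstl1 read 174 CPM in them, 31.1 in macrophage and monocyte-like cells and 183 in the main population. Pdgfra read 97.2, 21.7 and 145 in the same order, and Mmp14 199, 255 and 234. The part of these markers in the contrast was not tested.

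Within the main non-immune population, cells with high hypoxia genes carried less of nearly all subunits. Cells with at least 5000 UMIs were ranked in each library by 16 genes induced by low oxygen, such as Bnip3, Car9 and Egln3, and the highest 25% were compared with the lowest 25% (5822 cells each). Of 77 members 67 were lower and 5 higher in hypoxia-high cells (all genes: 59.2% called, 29.2% lower and 30% higher). Of the 76 above the low-count limit in every library of both groups of cells, 67 were lower and 4 higher. By complex, 34 of 37 members of complex I fell, 3 of 4 of complex II, 7 of 8 of complex III, 8 of 12 tested of complex IV and 15 of 16 of complex V. Atp5g1 fell most: its level was 218 to 338 CPM (median 259) in hypoxia-high cells and 400 to 494 (median 439) in hypoxia-low cells, and the libraries did not overlap (-0.74, SE 0.06). Ndufa5 (-0.62), Ndufb8 (-0.59) and Ndufa12 (-0.56), accessory subunits of complex I, and Uqcr10 (-0.53) of complex III followed, all lower in 6 of 6 libraries.

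Exceptions were few. Ndufa4l2 rose most (1.55, SE 0.21), from 0.337 ± 0.107 to 0.980 ± 0.297 CPM, on 44 and 116 UMIs. It met the low-count limit in every library of the hypoxia-high cells only, and so entered the test through the group where it was high. Its paralogue Ndufa4 fell (-0.48, SE 0.07). Ndufv3, which belongs to the NADH-binding arm of complex I, rose from 157 ± 8.89 to 225 ± 19.9 without overlap (0.54, SE 0.05). Ndufa6 (0.29), Cox7a2l (0.28) and Uqcrh (0.16) were higher in 6 of 6 libraries but overlapped between them. The members not called were Cox4i1 (0.02, SE 0.04), Cox7c, Cox7a1, Sdhc (-0.08, SE 0.04) and Atp5s.

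**Figure D3:**
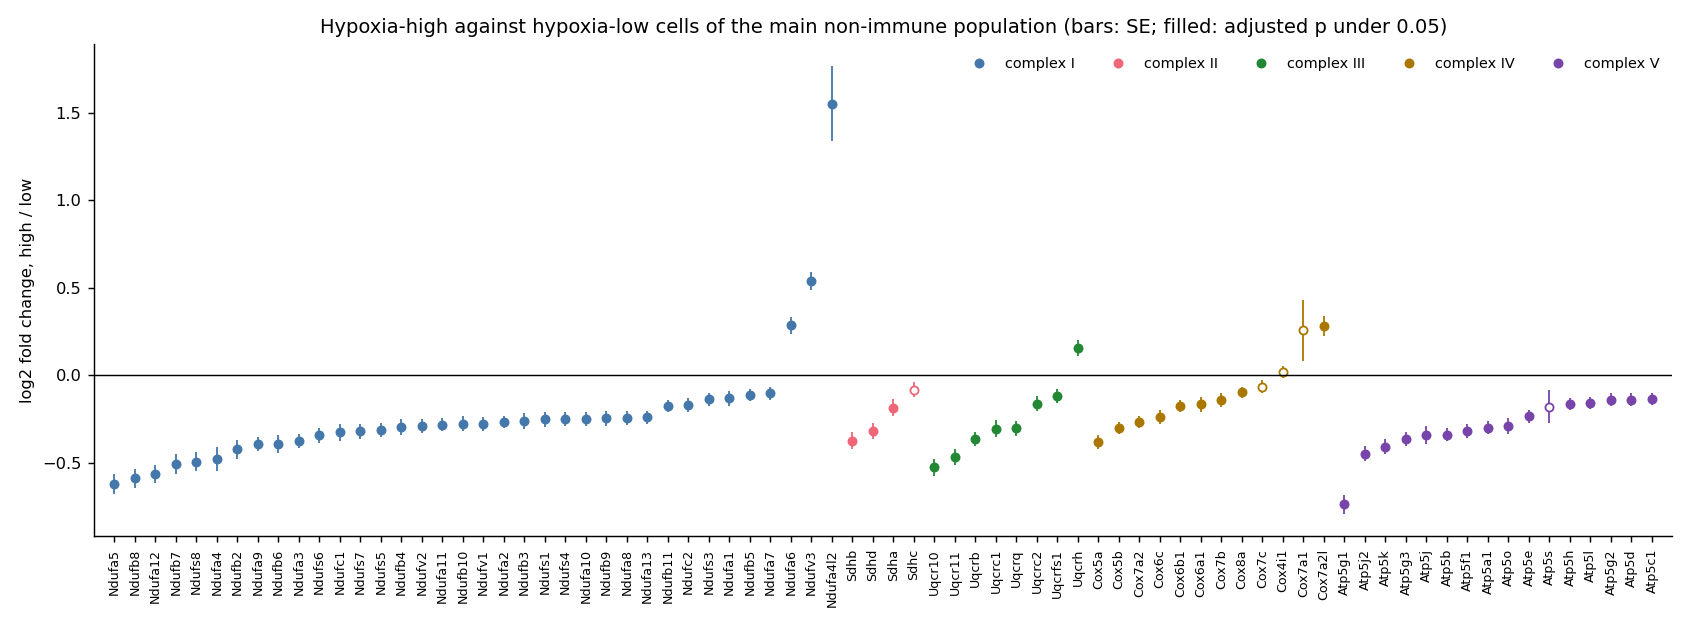
Log2 fold change of the tested subunits, with 1 not shown, between hypoxia-high and hypoxia-low cells of the main non-immune population, grouped by complex; points are edgeR estimates, bars their SE, and filled points have an adjusted p under 0.05. Most points lie below 0 and filled, from -0.74 for Atp5g1, and 5 filled points lie above, up to 1.55 for Ndufa4l2. Ndufa4l2 met the low-count limit in every library of the hypoxia-high cells only.

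Dividing cells moved with this ranking. Of hypoxia-high cells 19.0% to 36.1% held at least 3 of 8 markers of dividing cells, against 43.9% to 70.0% of hypoxia-low cells. In cells without any of those markers (an alternative chosen after seeing the data), 39 of 75 members fell and 0 rose (all genes: 25.9% called, 12% lower and 13.9% higher), with a median of -0.23 against -0.01 for all genes. There Atp5g1 (-0.49) and Ndufa5 (-0.57) still fell, while Ndufv3 (0.16), Cox7a2l (0.12), Ndufa6 (0.06) and Uqcrh (0.03) did not pass, and Ndufa4l2 was too low to be tested. In the full comparison 70 of 78 mitochondrial ribosomal proteins fell and 0 rose, and of the citric acid cycle enzymes 11 of 16 fell and 0 rose. Of the assembly factors 28 of 46 fell and 2 rose, and of the 11 biogenesis regulators tested 5 fell and 3 rose. Among 9 carriers and regulators 6 fell, with cytochrome c (Cycs) at -0.73 and the ATP synthase inhibitor Atpif1 at -0.55, and 1 rose, the hypoxia-inducible Higd1a (1.79, SE 0.13). The mitochondrially encoded subunits were mixed, with 5 of 13 higher (mt-Nd6 0.60, mt-Co1 0.40) and 7 lower (mt-Nd1 -0.48).

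Dividing cells of the main population carried more of most subunits and less of a small set. Cells with at least 3 dividing markers (9955) were compared with cells with none (4072). Of 78 members 45 were higher and 9 lower (all genes: 67.3% called, 31.4% higher and 35.8% lower). Atp5g1 read 383 to 466 CPM (median 426) in dividing and 251 to 308 (median 282) in non-dividing cells (0.57, SE 0.04), and Ndufb8 (0.56), Uqcr10 (0.48), Atp5b, the catalytic beta subunit of ATP synthase (0.48), and Uqcrq (0.44) followed. Ndufv3 fell from 202 to 227 (median 222) to 140 to 153 (median 148) CPM, a log2 change of -0.61 (SE 0.04). Ndufa6 (-0.56), Uqcrh (-0.42), Cox7a2l (-0.39) and Cox4i1 (-0.31) also fell in 6 of 6 libraries without overlap. Dividing cells had a median of 24884 to 33206 UMIs and non-dividing cells 13170 to 18499, and the part of depth was not tested. Below the median hypoxia level of their library, 34 of 76 members were higher and 11 lower (all genes: 63.3% called, 31.8% higher and 31.5% lower).

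In dividing CD8 T-like cells, which are other cells of the same libraries, Ndufa6, Cox7a2l and Uqcrh were again among the genes that fell. Of 74 members 21 were higher and 7 lower (all genes: 35.5% called, 17.8% higher and 17.7% lower). Atp5b rose most (0.56, SE 0.07), at 617 ± 51.6 against 400 ± 30.9 CPM, with Ndufc2 (0.50), Ndufv1 (0.46), Ndufa12 (0.42) and Ndufb8 (0.41) next. Ndufa6 read 171 to 252 CPM (median 208) in dividing and 260 to 348 (median 304) in non-dividing CD8 T-like cells (-0.66, SE 0.11), and Cox7a2l (-0.60) and Uqcrh (-0.48) also fell without overlap. Ndufv3 (-0.25, adjusted p = 0.045) and Atp5h (-0.24, adjusted p = 0.010) passed in this fit but not with DESeq2, with library totals or without the filter on low counts, which each left 3 members lower. Ndufv3 was lower in 5 of 6 libraries and also missed the threshold without the library block (adjusted p = 0.0786). The count of higher members was 11 without sedentary library 1, 12 without sedentary library 2 and 11 without exercise library 5.

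Cox4i1, Cox7a2l, Ndufa6, Ndufv3 and Uqcrh were lower in dividing cells of both kinds, which is 55.6% of the 9 lower in the main population and 71.4% of the 7 lower in CD8 T-like cells. Likewise 19 members were higher in both, 42.2% of the 45 and 90.5% of the 21. Over all genes, those called higher in both were 24.9% of the main population's list and 84.1% of the CD8 T-like list. Those called lower in both were 14.2% and 55.2%. These lists were not limited to genes tested in both fits: the main fit tested 12443 genes and 78 members, the CD8 T-like fit 6509 and 74. So the shares of the main population's list cannot be set side by side between members and all genes. Cox7a2l, Ndufa6, Ndufv3 and Uqcrh were also 4 of the 5 members that rose in hypoxia-high cells, a comparison drawn from the same main population cells.

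**Figure D4:**
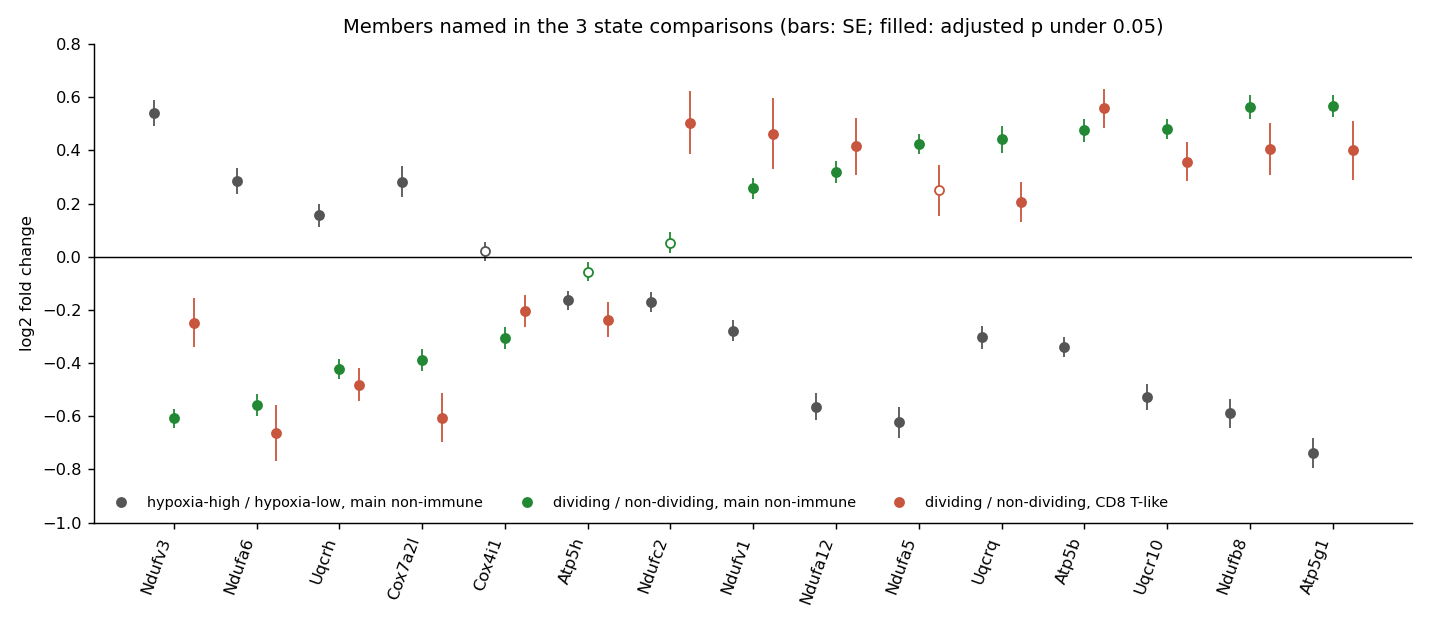
Log2 fold changes of the 15 subunits named in the 3 comparisons of cell state (grey hypoxia-high against hypoxia-low, green dividing against non-dividing main non-immune cells, red dividing against non-dividing CD8 T-like cells); bars are SE and filled points have an adjusted p under 0.05. Ndufa6, Uqcrh, Cox7a2l, Ndufv3 and Cox4i1 lie below 0 in both dividing comparisons, and Atp5g1, Ndufb8 and Uqcr10 above 0 in both.

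As members moved together, their promoters were searched for short words. The RefSeq table of promoters (GRCm38.p6) held 65 of the 81 members, and the 250 bases before each start were read on both strands. The palindromic word of nuclear respiratory factor 1, a regulator of respiratory genes, was searched as GCGC, any base, then TGCGC. It occurred in 13 of 65 members (20%) and in 4.23% of 27025 genes. The word CCGGAAG, bound by ETS factors such as GABP, occurred in 12 members (18.5%) and in 7.83% of genes. The YY1 word AAGATGGCG occurred in 1 member (1.54%) and 0.710% of genes, and ACGTG, the core of the hypoxia response element, in 12 members (18.5%) and 18.5% of genes. Of the 13 members with the first word 13 fell in hypoxia-high cells and of 50 tested without it 44, with medians of -0.28 and -0.28. For the ETS word 11 of 12 with it and 46 of 51 without it fell, and for ACGTG 12 of 12 and 45 of 51. A match is a description of the letters and not a site. Windows of 30 bases are shown for members of complexes II, IV, I and V with the first word, on the gene's strand, with the word or its reverse complement in capitals:
Sdha (chr13:74350241-74350270, minus strand): cgacacccgcgcgactcggtGCGCAAGCGC
Sdhd (chr9:50603909-50603938, minus strand): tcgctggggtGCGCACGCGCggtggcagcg
Cox6a1 (chr5:115349056-115349085, minus strand): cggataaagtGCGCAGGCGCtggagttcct
Ndufb4 (chr16:37654371-37654400, minus strand): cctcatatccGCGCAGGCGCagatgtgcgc
Atp5g2 (chr15:102671070-102671099, minus strand): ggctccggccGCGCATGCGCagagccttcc

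For the ETS word, Uqcrh is shown because it rose in hypoxia-high cells and fell in dividing cells, beside Ndufb7 and Sdhd, which fell in hypoxia-high cells. Capitals mark the word or its reverse complement:
Uqcrh (chr4:116075071-116075100, minus strand): actacgaggagtatgccgcaCTTCCGGcca
Ndufb7 (chr8:83566727-83566756, plus strand): gcctagatgacCCGGAAGacactgaagggg
Sdhd (chr9:50603877-50603906, minus strand): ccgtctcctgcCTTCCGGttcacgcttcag

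The comparison the study was designed for, exercise against sedentary, gave no subunit past the threshold in any of 8 cell populations. In the whole tumour 0 of 80 members were called (0% of 15482 genes), and 0 had an unadjusted p under 0.05. DESeq2 called 0 as well, here and in the other populations. The summed level was 21139, 21103 and 21346 CPM in sedentary libraries 1, 2 and 3 and 22939, 22467 and 21287 in exercise libraries 5, 6 and 8. Exercise libraries 5 and 6 were above every sedentary library and exercise library 8 was not. The median log2 difference was 0.06 over the members (65 of 80 above 0) and 0.01 over all genes. With no overlap between groups, 9 members were higher and 0 lower, against 3.12% and 3.68% of all genes. Cox6a2 had the smallest p among those lower, at 3.45, 1.67 and 2.22 CPM in the sedentary and 2.10, 0.830 and 1.49 in the exercise libraries (-0.74, SE 0.38), and the groups overlapped. In whole-tumour sums, fewer cells of a type and less RNA per cell cannot be told apart.

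In the main non-immune population 0 of 78 members were called (0% of 14202 genes), 0 had an unadjusted p under 0.05, and the members had a median of 0.08 (64 of 78 above 0) against 0.00 for all genes. Ndufa2 read 434, 487 and 498 CPM in the sedentary libraries and 545, 544 and 524 in the exercise libraries (0.19, SE 0.09). Ndufa5 read 172, 169 and 172, and 196, 200 and 178 (0.16, SE 0.07). Atp5e read 628, 651 and 685, and 732, 724 and 747 (0.17, SE 0.08). Each of these was higher in all 3 exercise libraries, and none passed edgeR's test (adjusted p = 0.996 for each). Atp5o (-0.13), Cox7b (-0.10) and Cox7a2l (-0.11) had the smallest p-values among those lower. In all, 7 members were higher and 2 (Atp5o and Cox7b) lower without overlap, against 3.76% and 5.25% of all genes. The mitochondrial ribosomal proteins had the same median, 0.08, with 69 of 78 above 0 and 0 called.

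The hypoxia list, along which the subunits varied, summed to 860, 1323 and 1382 CPM in the main population of the sedentary libraries and to 1064, 549 and 994 in the exercise libraries. Exercise library 6 was the lowest, and the part of this list in the exercise values was not tested.

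In macrophage and monocyte-like cells 0 of 79 members were called by edgeR (0% of 10900 genes) and 0 had an unadjusted p under 0.05, with a median of 0.02. Cox4i2 had the smallest p among those lower (-0.58, SE 0.31, adjusted p = 0.82); its levels, given above, overlapped between groups. In CD8 T-like cells 0 of 75 members were called by edgeR (0% of 9797 genes) and 1 had an unadjusted p under 0.05, with a median of -0.01. The minor ATP synthase gene Atp5s was that gene, at 8.72, 6.20 and 8.43 CPM in sedentary and 4.76, 4.82 and 3.40 in exercise libraries (-0.82, SE 0.33, adjusted p = 1.00), on 6 to 26 UMIs a library. In NK-like cells 0 of 74 were called (0.0161% of genes) and in neutrophil-like cells 0 of 69 (0.0666%, with 0.0333% higher and 0.0333% lower). Treg-like cells gave 0 of 70 (0%). Unadjusted p-values under 0.05 were found for 1, 2 and 0 members of these classes.

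Dendritic-like cells had the largest median, 0.19, with 66 of 74 members above 0 (48.7% of all genes were) and 0 called (0% of 7139 genes). Ndufa1 was at 85.1, 76.5 and 58.2 CPM in the sedentary and 103, 125 and 105 in the exercise libraries (0.62, SE 0.21, adjusted p = 0.74). It was 1 of 4 members (5.41%) with an unadjusted p under 0.05, beside Atp5e, Ndufa9 and Ndufa3, against 6.23% of all genes. The uneven depth, the Ptprc share and the main population markers of that class, given above, apply here, and their part was not tested.

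**Figure D5:**
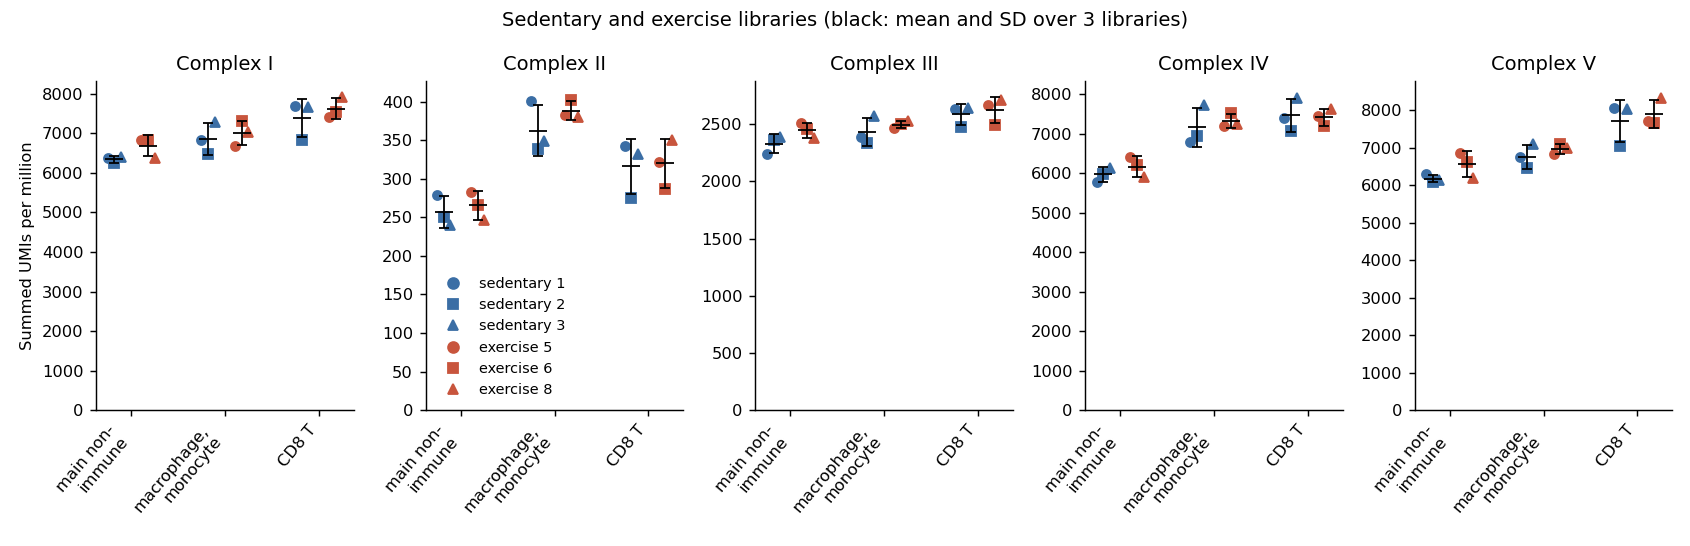
Summed CPM (linear axis from 0) of each complex in sedentary (blue) and exercise (red) libraries for 3 gated classes; points are libraries and black bars the mean and SD of 3. In the main non-immune population exercise libraries 5 and 6 lie above the sedentary ones in complexes I, III, IV and V, and exercise library 8 lies within the sedentary range in all 5 complexes.

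Whether exercise changed the subunits differently between populations or states was tested as an interaction. The exercise effect in macrophage and monocyte-like cells against that in the main population gave 0 of 80 members (0% of 14225 genes). In CD8 T-like cells against the main population it gave 0 of 79 (0.00701% of 14260 genes). The exercise effect on the hypoxia difference (0 of 78, 0% of 12623 genes) and on the dividing difference (0 of 78, 0% of 12960 genes) gave none either. A p that misses the threshold with 3 libraries a group does not show that the levels were the same.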

How the data were processed

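The deposited matrices hold raw UMI counts per gene and barcode, made by the authors from 10x 3′ v3 libraries with Cell Ranger 6.1.2 on mm10, per the submitters' processing notes; the matrix header names software version 3.1.0. Barcodes with under 300 genes, under 500 UMIs or over 20% mitochondrial UMIs and Scrublet doublets (0.946% to 2.42% of a library; scanpy 1.11.5) were removed. Classes were gated on detected markers. Counts were summed per library and class. They were tested with edgeR 4.0.16 (quasi-likelihood, TMM, filterByExpr, Benjamini-Hochberg over all genes tested; R 4.3.3), with the library as a block where both sums came from the same tumours, since these share their cells' source. DESeq2 1.42.0 and other gates, filters and scalings were alternatives, and some of the fits were tested on simulated data. There the whole-tumour exercise fit recovered 56% of genes changed by 1 on the log2 scale and 77% of those changed by 2. In the main non-immune population the exercise fit recovered 74% and 93%. Levels are CPM, the sum's counts over its total. Intervals are at 95% and cover counting error only.

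The members and gene lists were chosen with earlier results of these data known. Genes were named by rule: the 3 smallest p-values in each direction for exercise, the 5 largest called changes in each direction elsewhere, the isoform pairs, the 4 Sdh genes and each complex's extremes. The 3 interaction tests other than that of macrophage and monocyte-like cells were added after seeing the data, as were the alternatives with library totals, the Ptprc limit on dendritic-like cells, cells with no dividing marker and cells below the median hypoxia level. Gene positions are from GENCODE M21; 29 members overlap an antisense gene and 12 a gene on the same strand, and 2 entries share the name Atp5o, so reads of such genes may be split. The single values of 1 member are not reported here, though it is part of the counts and sums. Proteins and a genome sequence were not used here.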

Additional observations from a re-analysis of the deposited data

How the results depend on the processing

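No paired analysis was possible for exercise against sedentary because the groups share no library number. For comparisons within a library, leaving out the replicate block gave 45 higher and 14 lower members for macrophage and monocyte-like against main non-immune cells, 40 and 11 for CD8 T-like against main non-immune cells, 15 and 20 for CD8 T-like against macrophage and monocyte-like cells, 0 and 43 for neutrophil-like cells, 7 and 0 for pDC-like cells, 5 and 55 for hypoxia-high cells, 34 and 8 for dividing main non-immune cells and 17 and 6 for dividing CD8 T-like cells. No exercise comparison called a member under any alternative run.

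Counts that moved by more than 1.5 times were few. For CD8 T-like against main non-immune cells, 20 members were lower with all genes of at least 1 UMI. For CD8 T-like against macrophage and monocyte-like cells, library totals gave 27 higher and 14 lower, doublets kept 13 lower and stricter gates 15 lower. For pDC-like against dendritic-like cells, all genes of at least 1 UMI gave 1 higher, stricter gates 1 higher and 1 lower, and dendritic-like cells with a Ptprc UMI 1 higher and 1 lower. Cox4i1 (-0.014), Ndufa1 (-0.049) and Ndufa3 (-0.13) turned with stricter gates, and Ndufa3 (-0.070) with the Ptprc limit. Hypoxia-high cells with no dividing marker gave 0 higher and 39 lower. In dividing CD8 T-like cells DESeq2, library totals and all genes of at least 1 UMI each left 3 lower. The cause was not tested.

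Leaving out 1 library at a time gave 15 to 20 higher and 15 to 23 lower members for CD8 T-like against macrophage and monocyte-like cells, 2 to 5 higher for pDC-like cells and 11 to 20 higher for dividing CD8 T-like cells. It gave 43 to 45 higher in macrophage and monocyte-like cells, 62 to 67 lower in hypoxia-high cells and 41 to 48 higher in dividing main non-immune cells. Of the values of named genes in class and state comparisons, 992 kept their direction and side of the threshold, 38 kept direction only and 4 turned. Classes under 10 cells in a library had levels only, and neutrophil-like cells are the class most limited by depth.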
